A study of Mus musculus with 47 samples.

Results

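Greb1, Cckar, Irs4, Sytl4, Ecel1 and Brinp2 are 6 of the 37315 genes counted in each of 4 mouse brain regions. They were picked by name, through the GENCODE symbols of the Ensembl identifiers, as genes known for expression in the hypothalamus that depends on estrogen or differs between the sexes. The rule uses no measured value, but the genes were named with earlier results of these data known, and a high level in the hypothalamus is part of what they are known for. The animals were grown female mice of the inbred C57BL/6J strain, each in the proestrus, estrus, metestrus or diestrus stage of the estrous cycle. RNA was sequenced from whole hypothalamus, hippocampus, neocortex and cerebellum, with 3 libraries from separate animals for each stage and region, except neocortex in estrus, which had 2 here, for 47 libraries in all. The mice were untreated, and every proestrus animal was 91 days old, every estrus animal 90 days, the metestrus animals 90 or 91 days and the diestrus animals 90 or 92 days, so that the ages of proestrus and estrus animals did not overlap, and age could be told from stage there only through the other stages. There were no males, no ovariectomised animals and no hormone levels among these samples, and the way stages were assigned is not stated in these sources. Since whole regions were extracted, fewer cells that express a gene and less RNA per cell cannot be told apart.

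Estradiol rises in the rodent cycle to a peak in proestrus and is low again by estrus, and it acts on neurons of the preoptic area, the ventromedial nucleus and the arcuate nucleus mainly through estrogen receptor alpha, the product of Esr1. The receptor binds DNA at palindromic estrogen response elements and recruits coactivators, and in these nuclei it sets levels of receptors and signalling proteins that serve mating, feeding and energy balance. Females and males differ in several such genes, and the differences shrink or vanish after removal of the gonads.

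Each of the genes stands at a different place in such a cell. Greb1, named for growth regulation by estrogen in breast cancer, is a classical target and coactivator of the estrogen receptor in human breast cancer cells. Cckar encodes the type A receptor for the peptide cholecystokinin. Irs4 encodes an adaptor that couples the insulin and insulin-like growth factor receptors to phosphoinositide 3-kinase. Sytl4 encodes granuphilin, which binds Rab27 on secretory granules and docks them at the plasma membrane. Ecel1 encodes a neuronal membrane metalloprotease related to the endothelin-converting enzymes. Brinp2 belongs to a small family of neural genes induced by bone morphogenetic protein and retinoic acid.

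All 6 genes lie on the minus strand of the GRCm38 assembly in the GENCODE annotation. Greb1 occupies chr12:16670615-16800886 with 9580 bases of merged exon, and Cckar chr5:53697776-53707705 with 3682. Irs4 is at chrX:141710998-141725263 with 6294 exonic bases and Sytl4 at chrX:133936385-133981812 with 5125. Both remaining genes are on chromosome 1, Ecel1 at chr1:87147655-87156521 with 3500 exonic bases and Brinp2 at chr1:158245269-158356326 with 8767. Exons of Greb1 and Irs4 overlap antisense transcripts, Gm48140 and Gm15295. Gm48140 was not analysed here, and Gm15295 had 290 counts in all hypothalamus libraries together against 9003 for Irs4. The sources used here do not say whether counting used the strand, so reads of a gene and its antisense partner could not be separated.

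RefSeq promoters on GRCm38.p6 were found for 4 of the 6 genes, and the 250 bases before each start were searched on both strands for the estrogen response element, since these genes were chosen for their dependence on estrogen. The full palindrome GGTCANNNTGACC was in none of the members' 5 promoter windows and in 0.0645% of the 32536 promoter windows of all genes. Its core, GGTCA or TGACC, was in 35.3% of all windows, in both Greb1 windows and in that of Irs4, while the windows of Sytl4 and Ecel1 had none. The Greb1 window that lies outside the annotated gene (chr12:16800887-16801136) and that of Irs4 (chrX:141725264-141725467, cut where the annotated gene begins) are printed below 5′ to 3′ on the minus strand, with the core in capitals.
Greb1: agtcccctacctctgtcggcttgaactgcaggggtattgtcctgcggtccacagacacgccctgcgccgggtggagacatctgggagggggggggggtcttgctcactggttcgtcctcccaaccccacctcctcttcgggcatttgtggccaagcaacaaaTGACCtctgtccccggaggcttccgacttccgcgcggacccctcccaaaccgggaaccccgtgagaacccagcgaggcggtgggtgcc
Irs4: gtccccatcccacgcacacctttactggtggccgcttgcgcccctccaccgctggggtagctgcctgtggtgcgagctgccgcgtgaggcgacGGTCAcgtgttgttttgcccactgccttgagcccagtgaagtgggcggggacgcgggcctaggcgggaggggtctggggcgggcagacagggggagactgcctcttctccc
Counted from the RefSeq start, the core began at -88 in this Greb1 window and at -157 in Irs4. The GC box GGGCGG, held by 33.0% of all windows, occurred at 2 places in the Irs4 window and in no other member's. Neither the AP-1 motif TGANTCA nor the TATA box TATAAA was in any of the members' windows, against 6.73% and 12.3% of all windows. Such matches describe the letters of a short window, and sites elsewhere were not searched. Cckar and Brinp2 have no entry in the promoter table.

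Depth differed between regions, with 1826368 to 8264980 counts per hypothalamus library, 7672217 to 15680876 in hippocampus, 6311867 to 10535466 in neocortex and 2558644 to 7996961 in cerebellum. Hippocampus libraries were made with another preparation protocol than the other regions, which cannot be told apart from the region itself. The label of the hypothalamus was borne out by its markers: for 12 of 12, among them Pomc, Agrp, Oxt, Avp, Hcrt, Pmch and the ventromedial gene Nr5a1, every hypothalamus library lay above every other library. The hypothalamus library Estrus 3 stood apart. It was the least deep, 13.5% of its counts were from the mitochondrial tRNA synthetase gene Lars2, and 14.8% were in genes without a GENCODE symbol. Its summed striatal markers were the highest, at 314 CPM (counts divided by the total of the library and scaled to the usual common total) against 134 to 225 in the other 11. Lars2 also held 10.6% of counts in Metestrus 3, 8.62% in Metestrus 2 and 8.18% in Proestrus 2. In the remaining hypothalamus libraries it held 1.34% to 4.86%. Genes without a symbol held 8.74%, 7.83% and 6.65% in Metestrus 3, Metestrus 2 and Proestrus 2. Estrus 3 and Metestrus 3, the richest in Lars2, were left out together in some alternatives.

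The brain regions came first, and here the genes fell into 3 kinds. Cckar, Irs4, Sytl4 and Ecel1 were almost confined to the hypothalamus, Greb1 was low everywhere with its highest mean there, and Brinp2 was expressed in all regions and was highest in neocortex. Levels are given in CPM of each library's total, as lowest, median and highest of a region's libraries, and between genes only per kilobase of exon.

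Irs4 was the most abundant of them per kilobase. In the hypothalamus it ranged from 101 to 223 CPM with a median of 178 (mean 172 ± 33.0, SD, n = 12). In hippocampus it ranged from 0.0936 to 1.86 CPM with a median of 0.562, in neocortex from 0 to 0.484 with a median of 0.120, and in cerebellum from 0 to 0.932 with a median of 0.285. The lowest hypothalamus library was thus far above the highest library elsewhere, and the other regions overlapped one another. The fitted log2 difference of hypothalamus was 8.12 against hippocampus, 9.50 against neocortex and 9.05 against cerebellum (edgeR test against a 2-fold change, adjusted p = 2.21e-40, 3.88e-39 and 1.22e-38). Only 12 of the 18152 genes tested had a larger log2 difference from hippocampus, and only 7 from neocortex.

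Sytl4 spanned 17.5 to 47.3 CPM in the hypothalamus with a median of 37.8 (mean 36.3 ± 7.94, n = 12). It was present at 0.655 to 1.59 CPM with a median of 1.05 in every hippocampus library. In neocortex it reached at most 0.481 CPM with 7 of 11 libraries at 0, and in cerebellum at most 0.470 with 5 of 12 at 0. The hippocampus libraries lay above all cerebellum and all neocortex libraries, and below all of the hypothalamus. The log2 difference of hypothalamus was 5.004 from hippocampus, 8.23 from neocortex and 7.80 from cerebellum, with edgeR adjusted p of 2.16e-31, 4.20e-33 and 4.17e-32.

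Ecel1 had 54.8 to 125 CPM in the hypothalamus with a median of 87.9 (mean 89.5 ± 19.7, n = 12). Every library of the other regions held some Ecel1 counts: 0.718 to 5.08 CPM with a median of 2.48 in hippocampus, 0.331 to 2.35 with a median of 0.921 in neocortex, and 0.194 to 1.30 with a median of 0.404 in cerebellum. Those 3 ranges overlapped, with the hypothalamus apart. The log2 differences were 5.196, 6.33 and 7.37 against hippocampus, neocortex and cerebellum, with edgeR adjusted p of 6.09e-32, 3.70e-32 and 1.59e-32.

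Cckar was far less abundant but as restricted. Its hypothalamus level ran from 1.77 to 12.8 CPM with a median of 5.16 (mean 5.55 ± 2.64, n = 12), from 4 to 43 counts per library. In hippocampus 3 counts were found over all 12 libraries, in cerebellum 6, and in the 11 neocortex libraries 0. No library elsewhere reached the lowest hypothalamus library. Pooled over libraries, the hypothalamus level was 247-fold that of hippocampus (95% exact counting interval 83.6 to 1205), 58.5-fold that of cerebellum (26.5 to 161) and at least 170.2-fold higher than in neocortex, taking a floor of 3 counts over that region. These intervals cover counting error only. The log2 differences were 7.17 from hippocampus and 5.76 from cerebellum (edgeR adjusted p = 5.68e-19 and 1.22e-15).

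Greb1 was barely counted in any region. It had 106 counts over the 12 hypothalamus libraries, at 0 to 8.02 CPM with a median of 1.79 (mean 2.16 ± 2.11). Its medians elsewhere were 0.489 CPM in hippocampus, 0.662 in neocortex and 0.568 in cerebellum, and each region had at least 1 library at 0. All 4 ranges overlapped. Against hippocampus the log2 difference of 2.13 was called (edgeR adjusted p = 0.00494), which did not hold with limma voom, where the adjusted p was 0.0878. Against neocortex (log2 1.62, edgeR adjusted p = 0.10) and cerebellum (1.55, 0.142) it missed the threshold of 0.05; without the libraries numbered 3 the neocortex comparison passed, at a log2 difference of 2.07 and an adjusted p of 0.0426.

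Brinp2 went the other way. It had 98.8 to 107 CPM in neocortex with a median of 103, 66.0 to 80.9 in hippocampus with a median of 72.5, 31.8 to 56.5 in the hypothalamus with a median of 44.5, and 23.3 to 32.1 in cerebellum with a median of 27.3. Neocortex, hippocampus and hypothalamus did not overlap, while the hypothalamus and cerebellum did at their ends. Relative to neocortex its level in the hypothalamus was lower by a log2 difference of -1.35 (edgeR adjusted p = 9.80e-08). Its differences from hippocampus, -0.745, and from cerebellum, 0.72, did not exceed 2-fold by that test (adjusted p = 1 for both). Both passed an edgeR test of no change, at adjusted p of 4.52e-17 and 4.79e-15. Most of all genes tested also passed that test, as counted in the closing section.

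**Figure D1:**
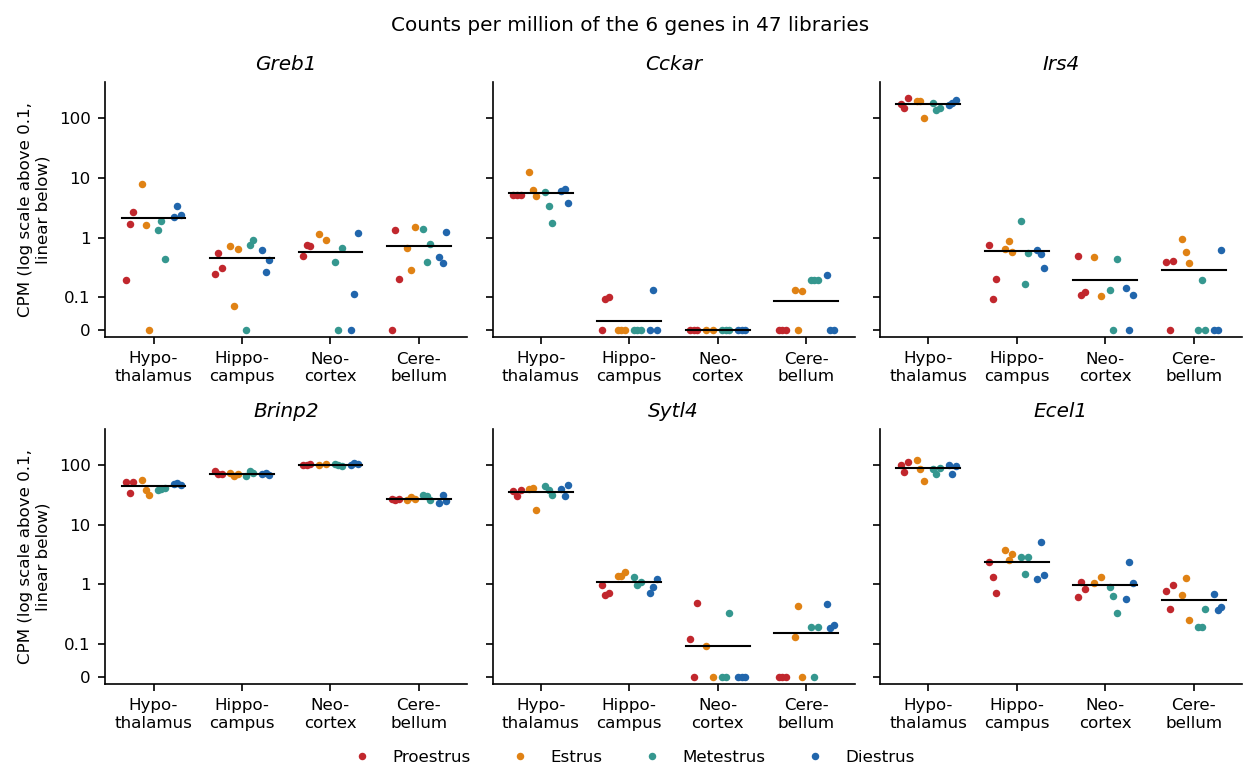
Level of each gene in CPM (vertical axis, logarithmic above 0.1 and linear below) in the 47 libraries, by brain region; each point is a library coloured by estrous stage and each line the mean of a region. Irs4, Sytl4, Ecel1 and Cckar are high in the hypothalamus only, with the lowest hypothalamus library of Irs4 at 101 and the highest other library at 1.86, whereas Brinp2 is highest in neocortex.

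Counted together, 5 of the 6 genes were higher than in hippocampus past the 2-fold test, where 7.22% of the 18152 genes were. Against neocortex 4 were higher, where 10.8% of all genes were, and 1, Brinp2, was lower, where 6.89% were. Against cerebellum 4 were higher, beside 13.4% of all genes. None was lower than in hippocampus or cerebellum, where 8.83% and 6.56% of all genes were. The same 4 genes, Irs4, Sytl4, Ecel1 and Cckar, were higher than in each other region, as were 3.82% of all genes tested, and in those 4 every hypothalamus library lay above the 35 others, as in 2.45% of all genes. Without the hippocampus libraries in the fit, 5 members were called against neocortex and 4 against cerebellum, as with them. As the genes were named for hypothalamic expression, these counts describe the choice and are no independent evidence for it.

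Per kilobase of exon, the order in the hypothalamus was Irs4 (27.4 ± 5.25 CPM per kb), Ecel1 (25.6 ± 5.64), Sytl4 (7.08 ± 1.55), Brinp2 (5.07 ± 0.925), Cckar (1.51 ± 0.718) and Greb1 (0.225 ± 0.220), all SD with n = 12. Irs4 and Ecel1 differed by less than their spread. Esr1 stood at 1.98 CPM per kb there, between Brinp2 and Cckar.

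Relatives of the 6 genes were distributed otherwise in most cases. Irs1 and Irs2, the widely used adaptors of the insulin receptor, had 42.4 ± 6.30 and 72.8 ± 13.8 CPM in the hypothalamus and neither differed from any other region past the 2-fold test. Per kilobase, Irs4 at 27.4 exceeded Irs2 at 11.5 and Irs1 at 4.63 in the hypothalamus, while in cortex Irs4 stood at 0.0305 against 10.002 for Irs2. Irs3 had only 22 counts over the hypothalamus libraries.

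The cholecystokinin system was arranged otherwise. Cckbr, the type B receptor, was highest in neocortex, at 77.0 ± 5.38 CPM against 10.2 ± 2.44 in the hypothalamus, a log2 difference of -3.03 (edgeR adjusted p = 1.35e-25). The peptide gene Cck was lower in the hypothalamus than in each other region, with 7.97 ± 3.11 CPM there and 191 ± 21.2 in neocortex. Cckar, the type A receptor, had its counts almost only in the hypothalamus, although per kilobase Cckbr, at 3.57, was still above Cckar, at 1.51, in the hypothalamus itself.

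Among synaptotagmin-like genes, Sytl2 had its highest level in neocortex (76.2 ± 4.54 CPM against 15.5 ± 4.02 in the hypothalamus), and Sytl5 was higher in the hypothalamus than in neocortex (log2 1.86) and cerebellum (5.04). Sytl1 and Sytl3 had 15 and 7 counts in the hypothalamus. Of the metalloproteases, Ece2 was higher in the hypothalamus than in hippocampus (log2 1.98) and neocortex (2.71), and Ece1, at 84.3 ± 14.1 CPM, differed from no region past the 2-fold test. Mme, which encodes neprilysin, was higher than in cerebellum only, by a log2 difference of 2.48. Brinp1 resembled Brinp2 in being highest in neocortex, at 224 ± 11.5 CPM against 76.1 ± 11.03 in the hypothalamus. Brinp3 had its highest mean in the hypothalamus, at 39.4 ± 6.96 CPM. Past the 2-fold test Brinp3 was higher there than in hippocampus (log2 1.79) and cerebellum (1.24), but not than in neocortex (0.528). Greb1l, the paralog of Greb1, was more abundant than Greb1 in the hypothalamus, at 1.62 against 0.225 CPM per kb, and was higher there than in cerebellum (log2 1.89). Of these 15 relatives 12 were tested; 2 were called higher and 2 lower against hippocampus, 2 and 4 against neocortex, and 5 and 1 against cerebellum, where 7.22% and 8.83%, 10.8% and 6.89%, and 13.4% and 6.56% of all genes were. The relatives' median log2 differences were 0.40, 0.24 and 0.50 beside -0.01, -0.003 and 0.01 over all genes.

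**Figure D2:**
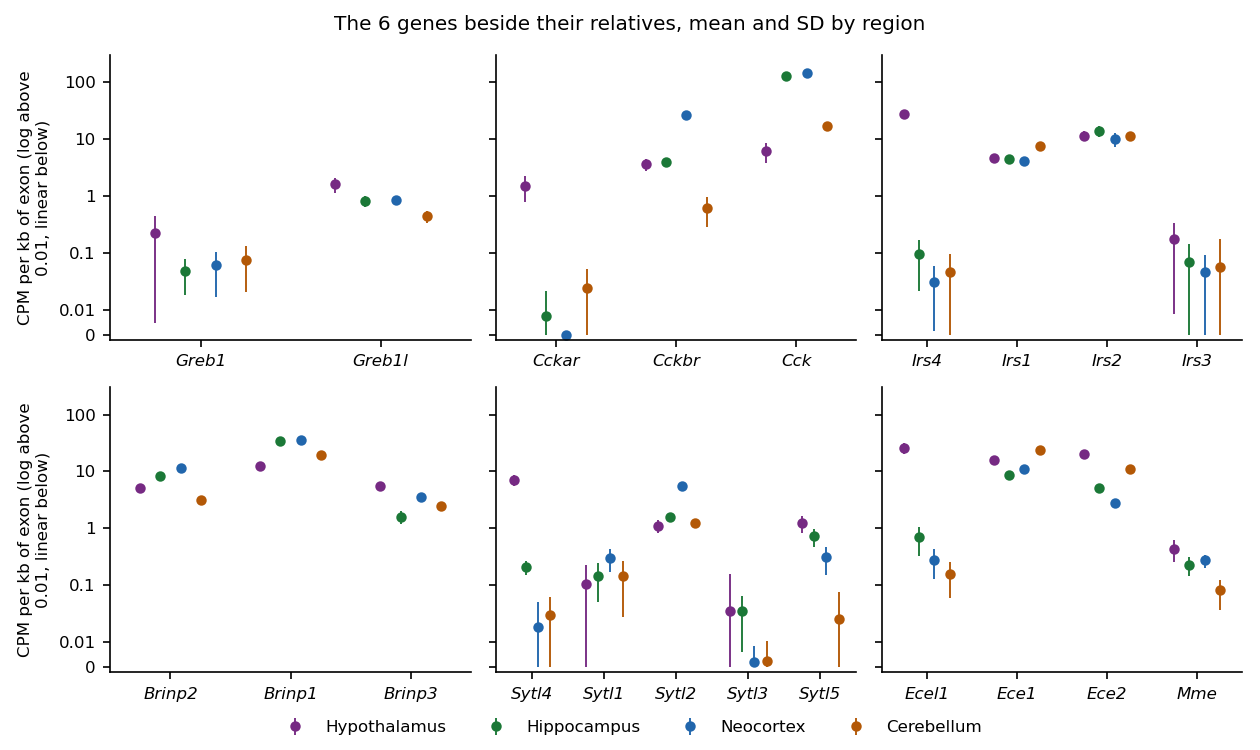
Mean CPM per kilobase of exon (vertical axis, logarithmic above 0.01 and linear below) of each gene and its relatives in the 4 regions; whiskers are SD over 12 libraries (11 in neocortex) and stop at 0. The hypothalamus point of Irs4, 27.4, is above those of Irs1 and Irs2, and its points in the other regions are the lowest of the 3 genes.

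The question of the study was whether expression moves with the stage of the cycle, and in the hypothalamus none of the 6 genes was called. A test across the 4 stages called 0 of 15230 genes (0%) at an adjusted p of 0.05 with edgeR, and DESeq2 called 0 as well; at an unadjusted p under 0.05 edgeR found 234 genes, 1.54%, and none of the members among them. The values of each gene in the 3 animals of each stage follow.

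Greb1 had 0.196, 1.70 and 2.66 CPM in proestrus, 8.02, 1.61 and 0 in estrus, 1.36, 1.87 and 0.441 in metestrus and 2.19, 3.43 and 2.39 in diestrus. The highest and the lowest library of the 12 were both in estrus. By CPM, diestrus lay above metestrus without overlap, as in 9.52% of the genes tested. After the rescaling of libraries used in the fits they overlapped, with Metestrus 2 at 2.11 above Diestrus 1 at 1.93 and Diestrus 3 at 2.07. Across stages edgeR gave p = 0.341 over n = 12 libraries, adjusted p = 1. With 0 to 22 counts per library, counting alone would give a coefficient of variation of 36.6%, and the observed one was 97.8%.

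Cckar showed the smallest p of the 6 across stages, 0.0529 before and 1 after adjustment with edgeR. Its proestrus libraries were nearly equal, at 5.09, 5.11 and 5.203 CPM. Estrus held 12.8, 6.17 and 4.93, metestrus 5.78, 3.33 and 1.77, and diestrus 6.08, 6.55 and 3.78. Estrus 1 was the highest and Metestrus 3 the lowest, and all 4 stages overlapped. By edgeR, estrus was above proestrus by a log2 difference of 0.83 (limma voom 95% interval 0.08 to 1.45). Metestrus stood at -1.085 against estrus (-1.75 to -0.13) and diestrus at -0.79 against estrus (-1.51 to -0.05). Here and below, intervals come from a separate limma voom fit and need not centre on the edgeR differences. Their unadjusted edgeR p values were 0.0357, 0.0113 and 0.0469, and each adjusted p was 1. Without Estrus 1 these log2 differences were 0.395, -0.65 and -0.354, and with age as a factor they were 0.152, -0.737 and -0.654. In the hypothalamus 1533 genes, 10.1%, had at least 1 of 6 stage pairs under an unadjusted 0.05, as 1 of the 6 members did.

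Irs4 had 173, 149 and 223 CPM in proestrus, 198, 196 and 101 in estrus, 184, 138 and 152 in metestrus and 170.2, 182 and 200.04 in diestrus. All stages overlapped, and the low value in estrus was that of Estrus 3. Its 6 pairwise log2 differences lay between -0.09 and 0.05, and the stage test gave p = 0.896 (edgeR, n = 12 libraries, adjusted p = 1).

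Sytl4 stood at 37.0, 30.3 and 37.7 CPM in proestrus, 39.4, 41.9 and 17.5 in estrus, 44.4, 37.9 and 31.8 in metestrus and 40.1, 30.2 and 47.3 in diestrus. Estrus 3 again was the lowest, and no 2 stages were apart. Its stage p was 0.270, and its smallest pairwise one was that of metestrus minus proestrus, with a log2 difference of 0.28 (unadjusted edgeR p = 0.0554 in a fit of n = 12, adjusted p = 1).

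Ecel1 had 102, 76.0 and 114 CPM in proestrus, 125, 86.7 and 54.8 in estrus, 85.6, 70.8 and 89.1 in metestrus and 102, 71.7 and 96.6 in diestrus. Estrus held both its highest and its lowest library. The stage test gave p = 0.537 with edgeR over n = 12, adjusted p = 1.

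Brinp2 counted 53.3, 34.1 and 52.3 CPM in proestrus, 56.5, 38.1 and 31.8 in estrus, 37.9, 40.2 and 42.4 in metestrus and 49.4, 50.5 and 46.7 in diestrus. Diestrus lay above metestrus in every library by CPM, the pattern shared by 9.52% of the genes tested. By the fit, which rescales the libraries, that difference was a log2 value of 0.09 (unadjusted edgeR p = 0.611, n = 12), and the stage p was 0.928.

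**Figure D3:**
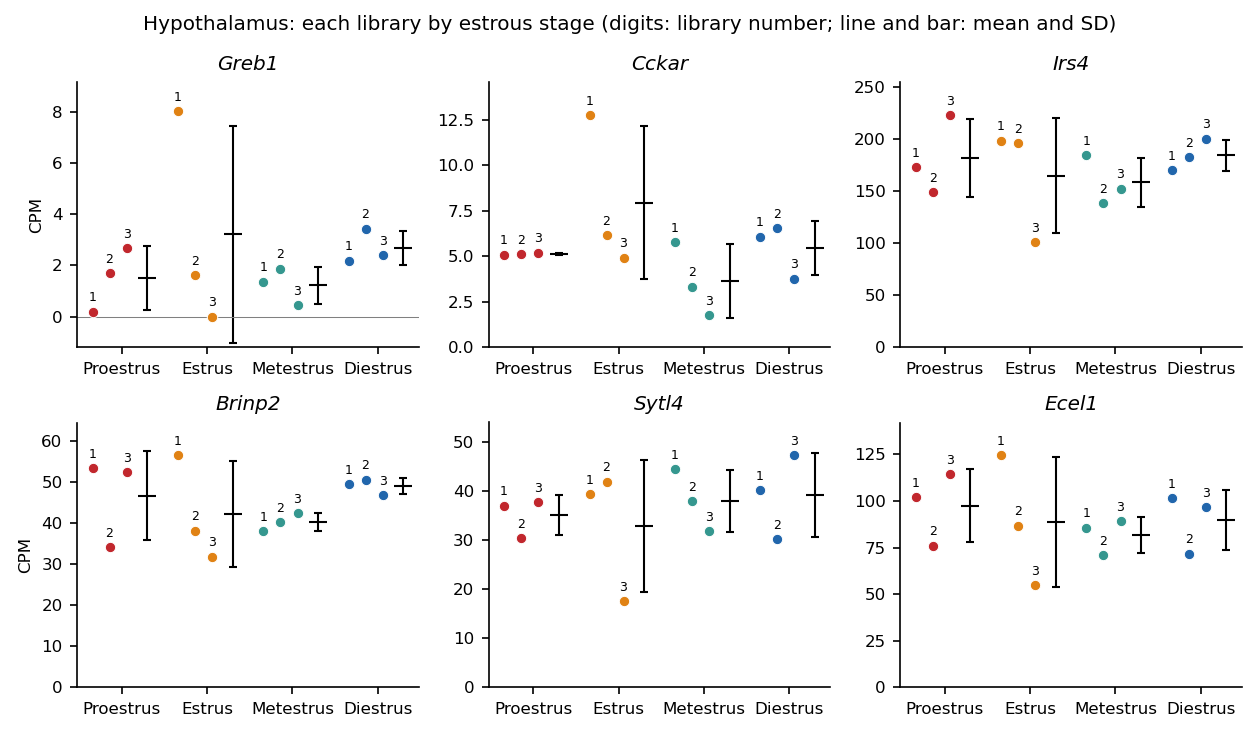
Level in CPM of each gene in the 12 hypothalamus libraries by estrous stage; digits are library numbers, and the black line and bar to the right of each stage are its mean and SD (n = 3). By CPM the stages overlap except for diestrus above metestrus in Greb1 and Brinp2, which does not hold after rescaling of the libraries. Estrus 3 is low in Irs4, Sytl4, Ecel1 and Brinp2.

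Beside the metestrus values above, pituitary transcripts were more abundant in the metestrus libraries. Summed over the 7 of 8 listed pituitary genes that were counted, they came to 18.9 to 57.8 CPM in metestrus and to 1.59 to 7.25 CPM in the other 9 libraries, with Prl and Gh at 0 in all 9. Their part in the Diestrus and Metestrus values of Greb1 and Brinp2 was not tested.

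Proestrus, the stage of the estradiol peak, was then set against the mean of the other stages. In the hypothalamus the log2 difference was -0.60 for Greb1, -0.21 for Cckar, 0.004 for Irs4, -0.001 for Brinp2, -0.18 for Sytl4 and 0.07 for Ecel1, with unadjusted edgeR p from 0.138 to 0.993 and adjusted p of 1. The signs of Irs4 and Brinp2 changed with the library scaling or weighting, and with age as a factor the difference was 0.312 for Cckar and -0.203 for Ecel1. Members with a value above 0 numbered 2 of 6, beside 51.4% of all genes, and the members' median was -0.09 beside 0.004. The edgeR test called 0 of 15230 genes (0%), DESeq2 and limma voom also 0, and 368 genes, 2.42%, had an unadjusted p under 0.05, none of them a member. The limma voom estimates of this contrast were -0.79 for Greb1, -0.195 for Cckar, 0.005 for Irs4, 0.036 for Brinp2, -0.189 for Sytl4 and 0.088 for Ecel1. Their intervals show what these libraries could resolve. By limma voom the 95% interval of the log2 difference ran from -0.18 to 0.19 for Irs4, from -0.25 to 0.32 for Brinp2, from -0.17 to 0.34 for Ecel1 and from -0.42 to 0.04 for Sytl4. As ratios, proestrus against the other stages had a lower bound of 0.881 for Irs4, 0.844 for Brinp2 and 0.891 for Ecel1. The interval of Cckar was -0.75 to 0.36, and that of Greb1, -2.25 to 0.67, allowed a ratio from 0.210 to 1.59. Beside this contrast, the 8 oligodendrocyte markers summed to 2815 to 4408 CPM in proestrus, 4147 to 6235 in estrus, 2590.5 to 6204 in metestrus and 3085 to 6710 in diestrus, and their part in the members' values was not tested.

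**Figure D4:**
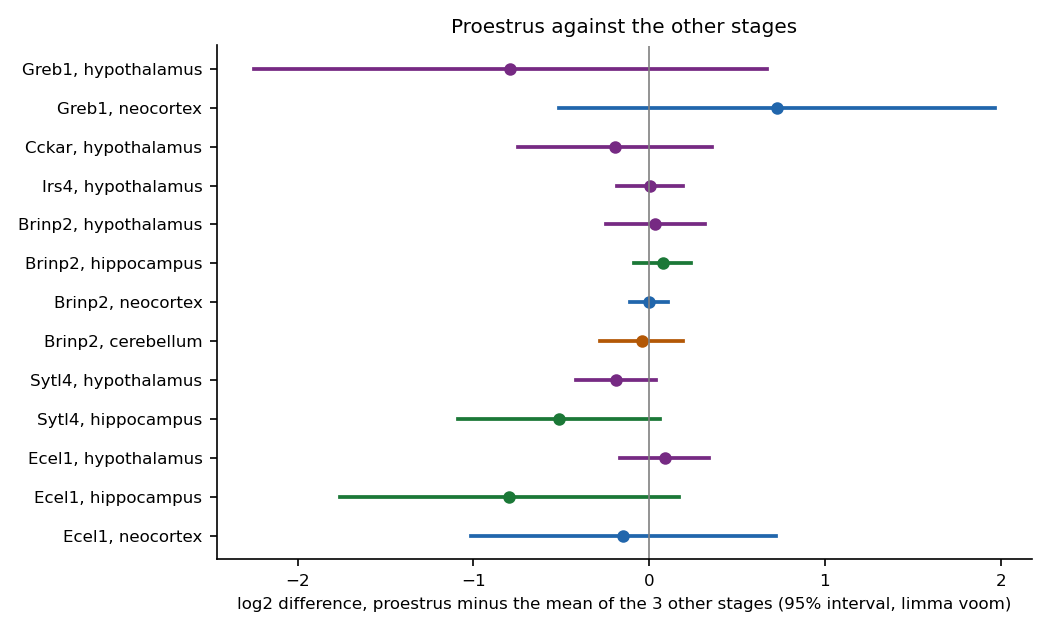
Log2 difference of proestrus from the mean of the other stages (horizontal axis) with its 95% interval, both by limma voom. The 13 pairs of gene and region with enough counts for a test are shown. All 13 intervals hold 0, and they are narrowest for Brinp2 in neocortex (-0.11 to 0.11) and widest for Greb1 in the hypothalamus (-2.25 to 0.67).

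The values also moved with the scaling of the libraries. By CPM, Estrus 3 was the lowest of 12 for 5 of the 6 genes, all except Cckar, and Estrus 1 was the highest for 4. The TMM method, which rescales libraries so that most genes agree, gave Estrus 3 a factor of 0.669, the smallest of the 12. Before that scaling, the summed hypothalamic markers were also lowest in Estrus 3, at 541 CPM against 630 to 1003 in the others. The same factor would raise this sum as well, and the part of these markers in the low values of Estrus 3 was not tested. After TMM, Irs4 ranged only from 150.4 to 192 and its coefficient of variation over the 12 libraries went from 19.2% to 8.96%. For Sytl4 that coefficient went from 21.9% to 13.6%, for Ecel1 from 22.0% to 15.8% and for Brinp2 from 18.3% to 14.4%. Cckar, at 47.7% and 46.9%, and Greb1, at 97.8% and 98.4%, hardly moved. Estrus 1 was the highest library for 5 of 6 genes after scaling. By CPM, 4 of the 6 genes had a lower mean in estrus than in proestrus, and with TMM 0 of 6 did. The direction between these stages thus rests on the scaling for Irs4, Brinp2, Sytl4 and Ecel1. A factor rescales all genes of a library alike. Shares over all genes were not computed for these counts, so they do not set the members apart from other genes.

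**Figure D5:**
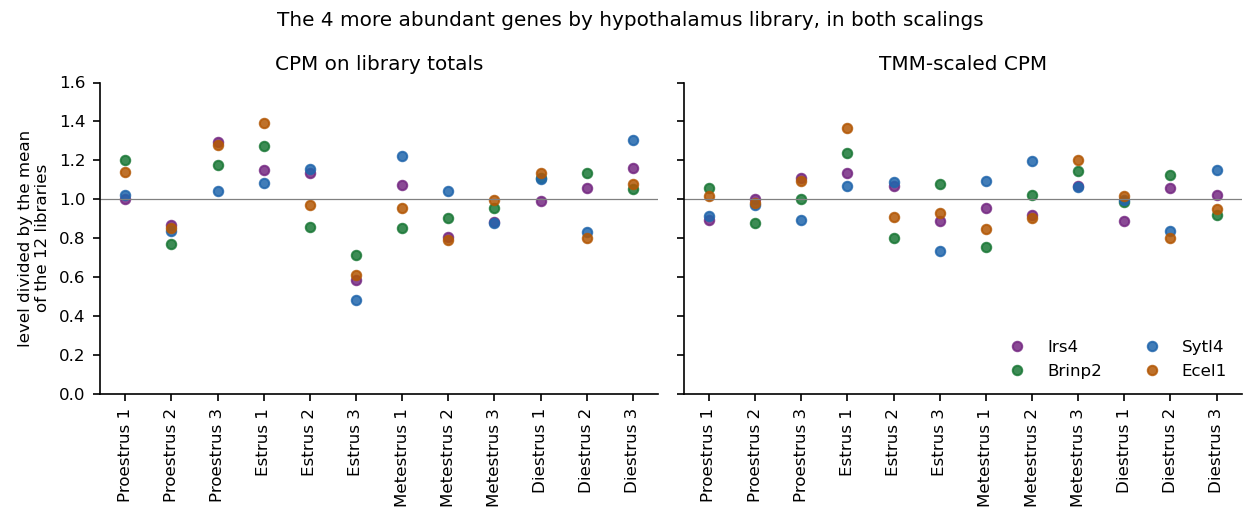
Level of Irs4, Brinp2, Sytl4 and Ecel1 in each hypothalamus library divided by the gene's mean over the 12 libraries, by CPM on library totals and after TMM scaling. Estrus 3 lies low in the first panel for all 4 genes, and the spread of Irs4 falls from a coefficient of variation of 19.2% to 8.96% in the second.

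Outside the hypothalamus only some of the genes had enough counts for a stage test: Brinp2, Sytl4 and Ecel1 in hippocampus, Greb1, Brinp2 and Ecel1 in neocortex, and Brinp2 in cerebellum. None was called by edgeR, and none had an unadjusted stage p under 0.05. Over all genes edgeR called 0 of 17079 (0%) in hippocampus, 0 of 15926 (0%) in neocortex and 0 of 14877 (0%) in cerebellum, with 1.47%, 5.61% and 1.72% at an unadjusted p under 0.05, while DESeq2 called 3, 1 and 0.

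Sytl4 in hippocampus came nearest to a pattern. Its level was 0.997, 0.655 and 0.718 CPM in proestrus, 1.37, 1.38 and 1.59 in estrus, 1.35, 0.998 and 1.10 in metestrus and 0.710, 0.912 and 1.25 in diestrus. By CPM, each estrus library was above all the others of the region, as held for 92 genes there, 0.539%. The nearest libraries across that gap, Estrus 1 at 1.37 and Metestrus 1 at 1.35, had TMM factors of 1.02 and 0.984. After that rescaling Metestrus 1 lay above Estrus 1, so the separation rests on the scaling. The counts behind these values were few, 7 to 25 per library. Estrus exceeded proestrus by a log2 difference of 0.83 (limma voom 95% interval 0.18 to 1.43), with an unadjusted edgeR p of 0.0176 and an adjusted p of 1, and the stage test over n = 12 libraries gave p = 0.0877. With age as a factor the difference was 0.426. In the same region 8.15% of genes had at least 1 stage pair under an unadjusted 0.05. In the hypothalamus the same contrast of Sytl4 was 0.12 (-0.17 to 0.46).

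Ecel1 in hippocampus had 2.41, 1.31 and 0.718 CPM in proestrus, 3.79, 2.55 and 3.25 in estrus, 2.90, 1.497 and 2.84 in metestrus and 1.22, 5.08 and 1.46 in diestrus. Estrus was above proestrus in every library, as in 5.28% of genes there, and the log2 difference of 1.05 had an unadjusted edgeR p of 0.0570, adjusted p = 1. It was 0.579 with age as a factor and 1.603 without Proestrus 1. The hypothalamic markers in the same hippocampus libraries summed to 5.89 to 16.6 CPM, against 541 to 1003 in the hypothalamus, and their part in the hippocampus levels of Ecel1 and Sytl4 was not tested. In neocortex Ecel1 had a log2 difference of 1.15 between diestrus and metestrus (unadjusted edgeR p = 0.0427 in a fit of n = 11, adjusted p = 1), from 3 to 21 counts per library, where 20.8% of genes had some stage pair under an unadjusted 0.05. Diestrus 2 stood at 2.35 CPM, while the other diestrus libraries, at 0.565 and 1.07, overlapped metestrus, at 0.921, 0.634 and 0.331. Without Diestrus 2 Ecel1 did not pass the filter on low counts, and with age as a factor the difference was -0.683.

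Greb1 in neocortex had 0.484, 0.765 and 0.721 CPM in proestrus, 1.139 and 0.928 in estrus, 0.395, 0 and 0.662 in metestrus and 0, 0.112 and 1.17 in diestrus, from at most 12 counts a library. Both estrus libraries were above proestrus, as in 14.5% of genes there, and above metestrus, as in 16%, and diestrus spanned the whole range. Its stage test gave an edgeR adjusted p of 0.963.

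Brinp2 could be tested in all 4 regions. Its highest and lowest stage means were compared by CPM on library totals. They differed by a ratio of 1.22 in the hypothalamus, 1.06 in hippocampus, 1.03 in neocortex and 1.10 in cerebellum. TMM factors were as low as 0.669 (Estrus 3) and as high as 1.18 (Proestrus 3) among hypothalamus libraries. Outside that region the extremes were 0.910 (Cerebellum Proestrus 1) and 1.03 (Hippocampus Metestrus 3). Ratios after this scaling were not computed, so the hypothalamus ratio cannot be ranked against the others. For Brinp2 the interval of proestrus against the other stages was -0.11 to 0.11 in neocortex, -0.08 to 0.24 in hippocampus and -0.28 to 0.19 in cerebellum. A test of whether stage differences differ among regions called 0 of 18152 genes (0%) by edgeR, with 276, 1.52%, at an unadjusted p under 0.05. The members' p there ran from 0.0839 for Sytl4 to 0.956 for Brinp2, with adjusted p of 1.

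How the genes varied together over the 12 hypothalamus libraries was computed for the 21 pairs of the 6 members and Esr1, on log2 CPM. Every Pearson r was positive, from 0.12 to 0.81 with a median of 0.55. After adjustment over the 21 pairs, 6 passed by permutation: Irs4 with Sytl4 (r = 0.811), Ecel1 (0.807), Esr1 (0.758) and Brinp2 (0.686), Brinp2 with Ecel1 (0.785) and Sytl4 with Ecel1 (0.709). Their adjusted permutation p lay between 0.0254 and 0.0380. By Spearman's rho, which was 0.406 to 0.783 for these pairs, 0 passed after adjustment; the smallest adjusted permutation p was 0.0808, for Brinp2 with Ecel1. Without the 2 libraries farthest from the median of the first gene, the 6 values of r came to 0.413 to 0.634, so the relations rest in part on those libraries. With TMM-scaled values, or without Estrus 3 and Metestrus 3, 0 of the 21 passed, and r for Irs4 with Sytl4 was 0.186 and 0.405. The share of positive or passing pairs among other genes was not computed. By log2 CPM, genes above an r of 0.9 numbered 844 for Irs4, 280 for Sytl4 and 174 for Ecel1. For Brinp2, Greb1 and Cckar they numbered 38, 3 and 0.

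Other genes followed the members in these libraries, given as r of log2 CPM with no p. Over the 12 hypothalamus libraries, whose depth and composition differ and act on all genes of a library, the nearest to Greb1 were Zfp112 (r = 0.915), Exph5 (0.906) and Smad3 (0.901), and to Cckar Acot1 (0.866), Rgs12 (0.856) and Gm5415 (0.854). Irs4 was nearest to Srrm2 (0.984), Nup205 (0.978) and Lonp2 (0.9748), and 844 genes exceeded an r of 0.9 with it. For Brinp2 they were Rps6kc1 (0.962), Xylt1 (0.941) and Hectd4 (0.936), for Sytl4 Gm25994 (0.978), Tm4sf1 just below it and A930017M01Rik (0.965), and for Ecel1 Tmem8b (0.978), Kmt2b (0.972) and A230050P20Rik (0.967).

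Over the 16 means of region and stage, likeness follows the region. Genes above an r of 0.9 numbered 778 for Sytl4, 740 for Irs4, 713 for Ecel1, 616 for Cckar, 600 for Brinp2 and 1 for Greb1. There Irs4 was nearest to the homeobox gene Isl1 (0.996) and Krt90 (0.995), Ecel1 to Gpr50 (0.995) and Arhgap6 (0.994), and Cckar to the neuromedin U receptor gene Nmur2 (0.990) and the homeobox gene Six6 (0.990). Sytl4 was nearest to Wdr6 (0.992) and Hap1 (0.992), Greb1 to Adamtsl3 (0.912) and Irx6 (0.884), and Brinp2 to Dact3 (0.996) and Myrip (0.996).

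The receptors through which estradiol and its partner hormones act were measured in the same libraries. Esr1 had 27.1 ± 5.46 CPM in the hypothalamus, 2.70 ± 0.626 in hippocampus, 1.95 ± 0.565 in neocortex and 0.595 ± 0.511 in cerebellum, and was called higher in the hypothalamus than in each (log2 3.32, 3.66 and 5.43, edgeR adjusted p = 4.59e-22, 2.04e-22 and 8.31e-27). Its hypothalamus values by stage were close, with means of 27.9 ± 0.675 CPM in proestrus, 24.4 ± 7.37 in estrus, 27.6 ± 6.97 in metestrus and 28.6 ± 6.70 in diestrus (SD, n = 3 each). The edgeR stage test of Esr1 gave p = 0.783 over n = 12, adjusted p = 1. Esr2, the beta receptor, had 46 counts over the 12 hypothalamus libraries and was too low for a stage test, and Cyp19a1, which encodes aromatase, had 1. Pgr, the progesterone receptor gene, which estradiol induces in the hypothalamus, had 23.8 ± 1.07 CPM in proestrus, 24.2 ± 15.998 in estrus, 15.9 ± 0.464 in metestrus and 21.7 ± 3.54 in diestrus (edgeR stage p = 0.183, n = 12, adjusted p = 1). The estrus spread of Pgr came from Estrus 1, at 42.6 CPM. Of the 4 genes of this list that were tested, 0 had an unadjusted stage p under 0.05, and 1 had a proestrus value above the other stages.

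Other genes known to depend on estrogen or to differ between the sexes in the hypothalamus were listed with them, 11 of 12 tested. None had an unadjusted stage p under 0.05; the smallest were those of Rprm (0.186), Moxd1 (0.299), Penk (0.393) and Tac1 (0.554). Rprm is a cell cycle regulator known to vary with estrogen in the ventromedial nucleus. In proestrus against the other stages it had a log2 difference of 0.57 with an unadjusted edgeR p of 0.0411 and an adjusted p of 1. Of all genes tested, 2.42% had an unadjusted p under 0.05 in that contrast and 1.54% across stages. The list's median difference in proestrus was -0.09 beside 0.004 for all genes. By region, Brs3, a bombesin receptor gene, and the neuropeptide genes Tac1, Pdyn and Gal were called higher in the hypothalamus than in each other region. Gal, galanin, had 10.1 ± 3.41 CPM in the hypothalamus and was at 0 in all neocortex libraries. In all, 5 of the list were higher and 1, Moxd1, lower against hippocampus, 6 and 0 against neocortex and 8 and 1 against cerebellum, where the lower one was Calb1, beside the shares of all genes given above for the relatives.

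Partners of Irs4 and Sytl4 were counted in turn. Of 8 genes of insulin and leptin receptor signalling, 0 had an unadjusted stage p under 0.05, with the smallest for Igf1r (0.360), Lepr (0.387), Pik3r1 (0.420) and Igf1 (0.534), and the median proestrus difference was -0.11. Lepr, the leptin receptor gene, was the only one of them called by region, higher than in neocortex (log2 1.87) and cerebellum (1.55). Of 7 genes of Rab27 and granule release, 0 had an unadjusted stage p under 0.05, with the smallest for Rab27b (0.199), Snap25 (0.226), Stx1a (0.422) and Rab3a (0.653); all 7 had a value above 0 in proestrus, with a median of 0.10 beside 51.4% and 0.004 over all genes, and 0 of the 7 had an unadjusted p under 0.05 in that contrast. Rab27a, a binding partner of granuphilin, was higher in the hypothalamus than in neocortex (log2 2.12) and Rab27b than in cerebellum (3.43), while Snap25, the synaptic membrane fusion protein gene, was lower than in each other region (-1.33, -2.02 and -1.53 against hippocampus, neocortex and cerebellum). Stx1a, the gene of the fusion protein syntaxin 1A, was lower than in hippocampus (-1.18) and neocortex (-3.09) but higher than in cerebellum (4.32). The relatives of the 6 genes also gave 0 of 12 with an unadjusted stage p under 0.05, the smallest being those of Mme (0.118), Irs2 (0.353), Ece1 (0.372) and Greb1l (0.448).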

How the data were processed

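RNA from 4 brain regions of female mice was sequenced after mRNA isolation, per the labels' protocols. GRCm38, TopHat2 2.0.8, Trimmomatic 0.32, Cufflinks 2.1.1, DESeq 1.12.1 and SAMtools appear in the submitters' processing notes. The authors deposited raw read counts per Ensembl gene, 1 table a region; these sources name neither the counting program nor its strand setting. Counts were used as deposited for 47 libraries of 1826368 to 15680876 counts; no 2 libraries of a group were identical (46 pairs). Symbols came from GENCODE M21 (35449 of 37315 genes; 1866 without).

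CPM used library totals. Stage was tested within a region with edgeR 4.0.16 (R 4.3.3): TMM, filterByExpr (minimum count 10, total 15), quasi-likelihood F-test, Benjamini-Hochberg over all genes tested, threshold 0.05. Region was tested with glmTreat beyond a log2 fold of 1, with stage as covariate. Intervals are limma 3.58.1 voom 95%. Correlations used log2 CPM with prior count 2 and 100000 resamples, two-sided, over 12 libraries. DESeq2 1.42.0, other scalings, filters, covariates and left-out libraries were alternatives. The fits were tested on simulated data. Members and lists were chosen with earlier results of these data known. Named genes were all 6 members, listed genes called, and up to 4 a list with the smallest stage p. With 3 libraries a stage, stage p values rest on the spread between these animals, estimated in part over many genes. Kiss1 and Lhb were not analysed here. Exact counting intervals and floors cover counting error only; voom intervals rest on the spread between libraries.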

Additional observations from a re-analysis of the deposited data

How the results depend on the processing

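Under every alternative run, 0 of the members tested for stage were called in any region, whether across stages, between pairs of stages or in proestrus against the rest, and 0 in the stage by region test. Against other regions 4 to 6 members were called. Counts over all genes moved from 0. Without a filter on low counts they were 115 (stages), 221 (pairs) and 26 (proestrus) in hypothalamus, 169, 497 and 36 in neocortex and 81, 165 and 20 in cerebellum. DESeq2 gave 3 and 3 in hippocampus and 1 and 51 in neocortex; voom with quality weights gave 1 pair in hypothalamus and 7 in hippocampus; a mean CPM of at least 1 gave 1 in hypothalamus, and age as a factor 1 pair in neocortex. Without Estrus 3 and Metestrus 3 hypothalamus gave 1 and 2. Leaving out libraries in turn gave 0 to 1 (stages) and 0 to 2 (pairs) in hypothalamus, 0 to 1 pairs in hippocampus, 0 to 1 and 0 to 4 in neocortex, and 0 to 5 and 0 to 10 in cerebellum. With no minimum fold, 13476, 13356 and 13544 genes differed from hippocampus, neocortex and cerebellum, against 2913, 3206 and 3615.

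Whether libraries of 1 stage and number come from 1 animal is not stated; their ages match in every region. Deviations of equally numbered libraries of a stage correlated at -0.142 to 0.189 between regions (69 pairs, 12 over 0.1), and between stages of a region at -0.428 to 0.468 (69 pairs, 10 over 0.1). With the number as a replicate block, hypothalamus gave 1 gene across stages and 2 between pairs, regions gave 2919, 3219 and 3615, and no member's call changed.

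Some differences changed sign. Proestrus against the rest for Irs4 in hypothalamus was -0.002 with RLE size factors and DESeq2, -0.009 with voom quality weights, 0 (rounded) with the replicate block, -0.013 without Estrus 3 and Metestrus 3, and -0.09 to 0.081 leaving out libraries. For Brinp2 it was 0.005 without a filter, 0.048 with voom weights, 0.031 without those libraries and -0.067 to 0.063 leaving out each. In neocortex Brinp2 was 0 (rounded) with RLE and DESeq2, -0.002 with the block and -0.032 to 0.028 leaving out each, and in cerebellum -0.085 to 0.018. With age as a factor, proestrus became 0.312 (Cckar) and -0.203 (Ecel1) in hypothalamus, -0.064 (Brinp2, hippocampus), 0.99 (Ecel1, neocortex) and 0.197 (Brinp2, cerebellum); estrus minus proestrus of Brinp2 in hippocampus became 0.054, and diestrus minus metestrus in neocortex -0.047 (Brinp2) and -0.683 (Ecel1). Metestrus minus estrus in hypothalamus was 0.093 for Brinp2 with voom weights, and leaving out libraries gave -0.309 to 0.077 for Brinp2 and -1.789 to 0.337 for Greb1 (main -1.30, positive without Estrus 1). Diestrus minus estrus of Ecel1 ran from -0.344 to 0.016.

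The count of correlated pairs went from 6 to 0 without Estrus 3 and Metestrus 3 and with TMM. Without those libraries r turned to -0.033 (Greb1 with Sytl4), -0.102 (Cckar with Sytl4) and -0.038 (Ecel1 with Esr1); with TMM to -0.337 (Cckar with Sytl4), -0.324 (Brinp2 with Sytl4) and -0.161 (Ecel1 with Esr1). The causes were not tested. Greb1 had at most 22 counts a library and Cckar at most 43; counting alone gives an SD of 0.777 and 1.24 CPM in hypothalamus, where 2.109 and 2.644 were observed.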
